A study of Homo sapiens with 4 samples.

Results

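Accessible chromatin at the genes of the cadherins and protocadherins was described in A375 cells, an established human melanoma line. The members were the 88 protein-coding genes of the RefSeq annotation whose symbol is CDH followed by a number or begins with PCDH, with the Y chromosome left out. A region belonged to a gene when it overlapped the gene's span extended by 5 kb on both sides. This gave 436 regions of 125986 in the authors' deposited table, and each region was counted once. Of these, 39 lay in the alpha, beta and gamma protocadherin clusters of chromosome 5, which hold 53 genes, and 397 belonged to the 35 genes outside the clusters. The rule uses gene names and positions only, but the family was picked with earlier results of these data known.

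A375 cells grown in DMEM with serum were kept for 48 h with 1 mM octanoate (a fatty acid of medium chain length) or with the vehicle isopropanol. The 4 libraries are 2 per treatment, and the labels give no other difference between them. The assay was ATAC-seq: Tn5 transposase cuts DNA that is not packed into nucleosomes and tags it for sequencing. The authors' deposited table gives for each region a mean normalized read count over the 4 libraries, a log2 fold change of octanoate over vehicle with its standard error (SE), and a p-value from DESeq2. Values of single libraries are not in it, so replicate spread enters only through that SE. Since the labels do not say whether the 2 libraries of a group came from separate cultures, the p-values measure only the spread between these samples, which may be technical. In such bulk samples, fewer cells with an open region and less opening in each cell cannot be told apart. Levels in vehicle and octanoate given below are implied by the mean and the fold change. The 95% intervals follow from the deposited SE with a normal approximation.

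Cadherins are membrane proteins that hold neighbouring cells together through calcium-dependent contacts between their extracellular repeats, and classical cadherins bind catenins inside the cell. Melanocytes in skin attach to keratinocytes through E-cadherin, and melanoma cells often carry N-cadherin in its place. The clustered protocadherins give neurons individual surface identities. Each variable exon of a cluster has a promoter of its own, and in the alpha and gamma clusters it is spliced to shared constant exons.

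No member region passed the authors' threshold, an adjusted p under 0.05. Of the 436 regions, 21 had a mean of at least 63.8 normalized reads, the level from which the authors' adjusted p-values run, and these are called tested. Of these, 0 were called in the authors' deposited table (DESeq2 with Benjamini-Hochberg adjustment over 11185 regions), against 1.02% of all tested regions. The lowest adjusted p among them was 0.264. At an unadjusted p under 0.05, 1 of the 21 was higher and 0 were lower, against backgrounds of 14.8% and 0.107%. With a background of 1.02%, a count of 0 in 21 is near what the whole table shows. Of the 21 fold changes 15 were above 0 and 6 below, against 85.7% above 0 among all tested regions. When every fold change was taken relative to the tested median of 0.19, 0 of the 21 were called (background 0.0536%). On that scale 3 of the 436 member regions were higher and 4 lower at an unadjusted p under 0.05 (backgrounds 1.08% and 0.604%), the CDH2 and PCDH7 start regions among the 4. The fold needed for a call at these SEs was a log2 change of 0.41 to 0.90, and the intervals of all 21 regions lay between -0.67 and 0.98. Each interval thus ended short of a doubling and of a halving.

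**Figure D1:**
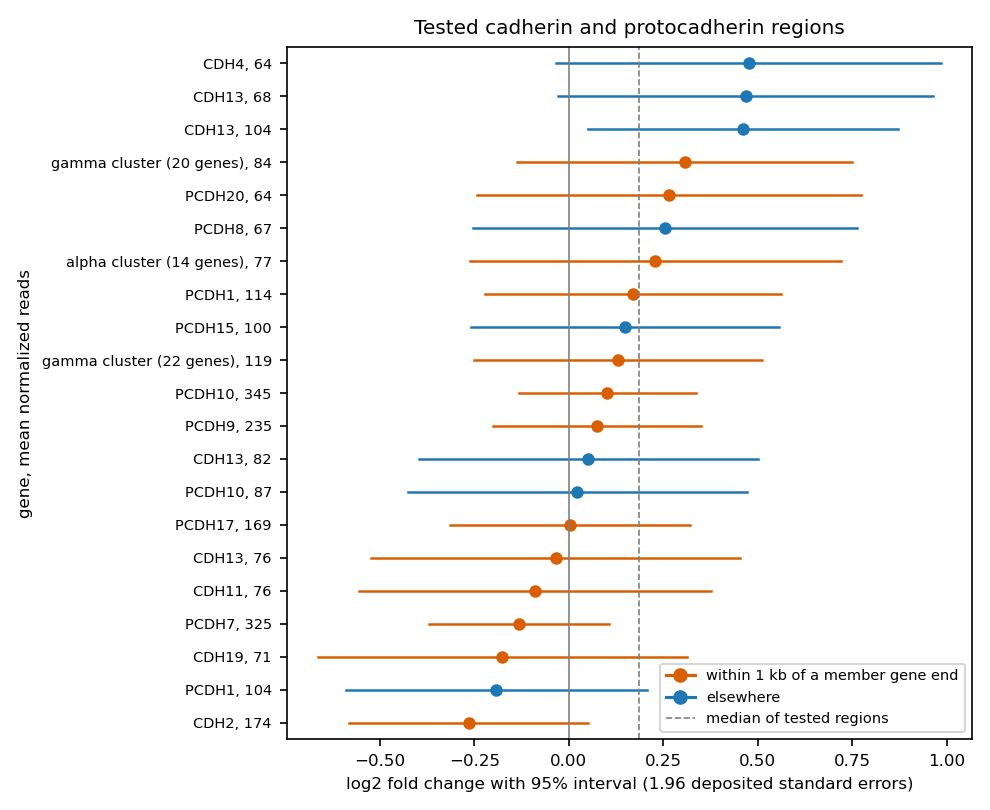
Log2 fold change of octanoate over vehicle (x axis) with its 95% interval for the 21 tested member regions (y axis, gene and mean normalized reads), orange within 1 kb of a member gene end and blue elsewhere. The values run from -0.27 for CDH2 to 0.48 for CDH4, and 20 of 21 intervals hold 0.

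Among the classical type I cadherins, 2 of 53 regions were tested, 1 in CDH2 and 1 in CDH4. CDH2, which encodes N-cadherin, had a region 3563 bp wide over its start (chromosome 18, 28175085 to 28178647, GRCh38) with a mean of 174 normalized reads in the authors' deposited table. The implied level was 191 in vehicle and 158 in octanoate, a log2 fold change of -0.27 (SE 0.16, interval -0.58 to 0.05, adjusted p 0.437 by DESeq2). It was the lowest fold change among the 21 tested regions. CDH1, which encodes E-cadherin, had 4 regions in the authors' deposited table with means of 1.11 to 25.4 normalized reads, and 0 of them lay within 1 kb of either end of the gene (chromosome 16, 68737292 to 68835537). Its fold changes were -0.17, -0.07, 0.14 and 0.44 on the log2 scale, each within 1 SE of 0. CDH3, the P-cadherin gene next to CDH1, likewise had 0 regions within 1 kb of its ends and 9 regions elsewhere, with means up to 45.4. A deposited list without a region there says that none was called, not that the DNA is closed.

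The sequence before the CDH2 start is shown beside that of CDH19, because both starts lie in tested regions of chromosome 18 and their base composition differs. Both are the 250 bases upstream of the RefSeq start (GRCh38.p14), at chr18:28177131-28177380 for CDH2 and chr18:66604091-66604340 for CDH19, each on the minus strand. Capitals mark CGCT on either strand, the letters at the core of the conserved element of clustered protocadherin promoters.
CDH2: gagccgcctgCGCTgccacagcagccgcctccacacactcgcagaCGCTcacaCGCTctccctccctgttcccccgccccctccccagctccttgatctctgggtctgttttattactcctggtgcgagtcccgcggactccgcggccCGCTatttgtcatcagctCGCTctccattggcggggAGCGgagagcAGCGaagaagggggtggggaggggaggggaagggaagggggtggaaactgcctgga
CDH19: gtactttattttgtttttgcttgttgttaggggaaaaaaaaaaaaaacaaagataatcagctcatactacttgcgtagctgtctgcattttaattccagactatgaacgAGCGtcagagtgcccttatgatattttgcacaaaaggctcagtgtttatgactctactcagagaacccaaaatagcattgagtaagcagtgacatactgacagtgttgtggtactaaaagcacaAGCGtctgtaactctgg
The CDH2 stretch held 17 CpG dinucleotides and 7 CGCT matches, and the CDH19 stretch 4 and 2.

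CDH19, a type II cadherin of the neural crest and Schwann cell lineage, had a region over its start (chromosome 18, 66603583 to 66604553) with 72.8 normalized reads per kb in the authors' deposited table. By signal per kb this stood at percentile 72.0 of the 10811 protein-coding gene starts that had a region, above CDH2 with 49.0 per kb at percentile 41.9. By mean the order was the reverse, with 70.7 normalized reads over 971 bp at CDH19 and 174 over 3563 bp at CDH2. The CDH19 start had an implied level of 75.01 in vehicle and 66.4 in octanoate (log2 fold change -0.18, SE 0.25, adjusted p 0.775). Over its 9 regions the median was -0.18 on the log2 scale, with 3 above 0. CDH2 had 11 regions, 6 above 0, with a median of 0.05.

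Among other type II genes, CDH11, found in mesenchymal cells, had a tested region over the higher-coordinate end of its span (chromosome 16, 65121412 to 65124001). It held 29.4 normalized reads per kb and had a log2 fold change of -0.09 (SE 0.24, adjusted p 0.890) in the authors' deposited table. CDH5, the endothelial VE-cadherin, had 4 regions with means of 13.2 to 49.4, none of them within 1 kb of its ends. CDH12 had 29 regions along 1103 kb, 22 of them above 0, with a median of 0.15 on the log2 scale. The medians of CDH8 and CDH20 were 0.13 over 18 regions and 0.24 over 10. CDH6, a cadherin of kidney and neural crest, had 8 regions, all above 0, from 0.10 to 0.89 with a median of 0.46, and 0 of these were tested. The choice of CDH6 as an example was made from its values.

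CDH13 encodes T-cadherin, which is held in the membrane by a lipid anchor and lacks the catenin-binding tail. It had 53 regions along 1174 kb, more than any other member, and 4 were tested. The region over the lower-coordinate end of CDH13 (chromosome 16, 82626652 to 82628607) had a log2 fold change of -0.03 (SE 0.25, adjusted p 0.963) in the authors' deposited table. A region farther inside the gene (82639673 to 82641703) had an implied 87.3 normalized reads in vehicle and 120 in octanoate, a log2 fold change of 0.46 (SE 0.21, interval 0.05 to 0.87, unadjusted p 0.0280, adjusted p 0.264). This was the 1 tested member region whose interval left out 0. Relative to the median of the tested regions its change was 0.27, with an unadjusted p of 0.191. A region in the higher-coordinate part of CDH13 (83717339 to 83718458) had 0.47 (SE 0.25, adjusted p 0.371), and the remaining tested one 0.05. Over all 53 regions the median was 0.32, and 42 were above 0. In the 28 regions with a mean at or above the median of all nuclear regions it was 0.16. The 101 non-member regions within 1 Mb of CDH13 had a median of 0.32 as well.

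**Figure D2:**
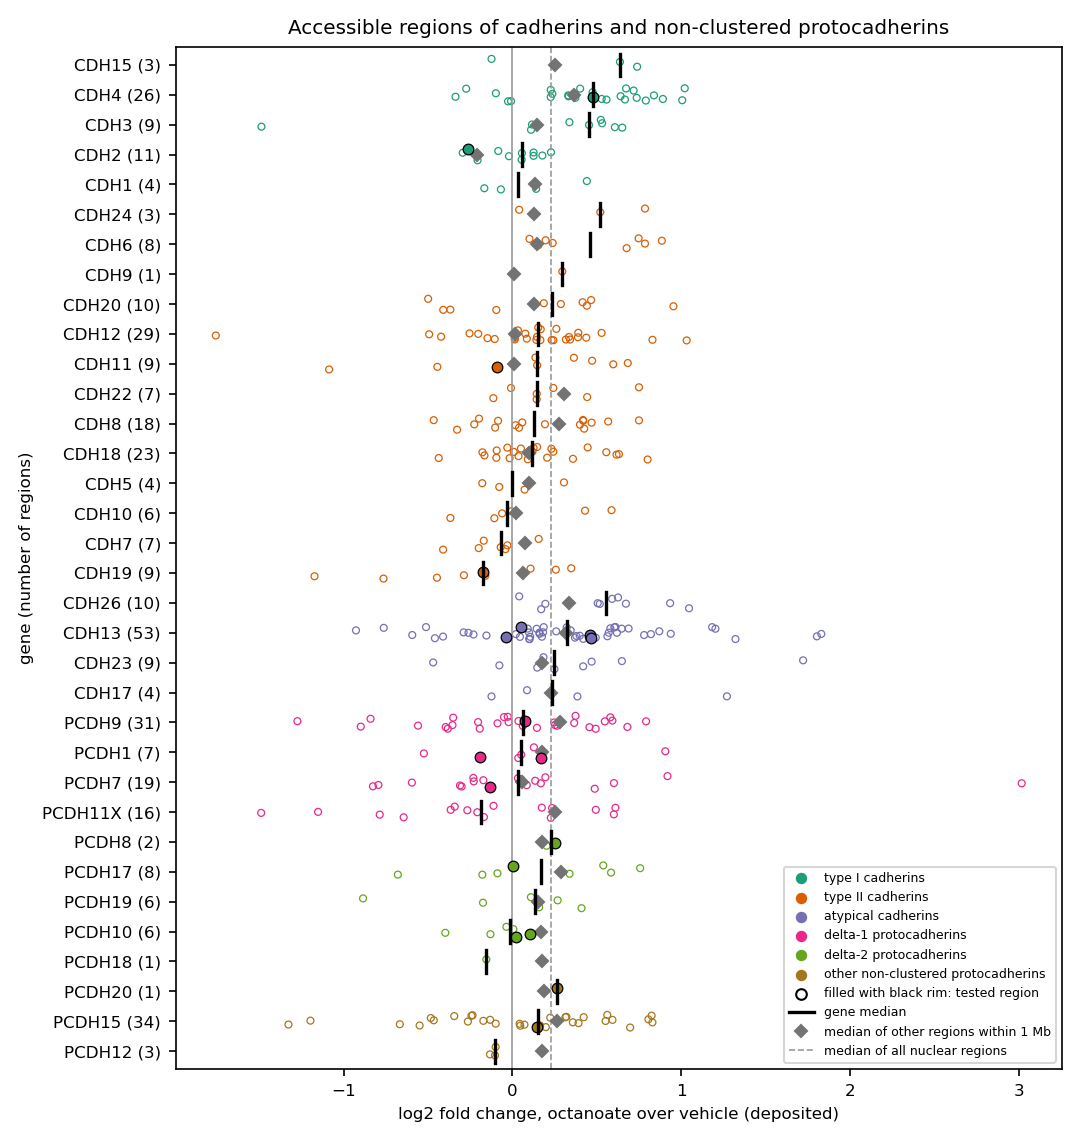
Log2 fold change (x axis) of every region of the 34 genes outside the clusters that had one (y axis, number of regions in parentheses), coloured by subfamily. Filled points with a black rim are tested regions, black bars gene medians, grey diamonds medians of non-member regions within 1 Mb, and the dashed line is the median of all nuclear regions, 0.23.

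CDH4 and CDH26 lie on the long arm of chromosome 20. CDH4 encodes R-cadherin, a type I cadherin of retina and brain. Of its 26 regions 21 were above 0, and the median was 0.48 on the log2 scale. The tested one (chromosome 20, 61925341 to 61926514) had an implied 53.6 normalized reads in vehicle and 74.5 in octanoate, a log2 fold change of 0.48 (SE 0.26, adjusted p 0.374) in the authors' deposited table. At the lower-coordinate end of CDH4 a region with a mean of 42.7 had a log2 fold change of -0.27 (SE 0.32). All 10 regions of CDH26 were above 0, from 0.04 to 1.05 with a median of 0.55, and 0 were tested. Its largest value, 1.05 (SE 0.41, unadjusted p 0.0101), came from a mean of 28.7 normalized reads. These genes and CDH15 gave the 39 member regions within 5 Mb of the outermost listed region of a chromosome. Those 39 had a median of 0.52 on the log2 scale, the other 397 had 0.14, and all nuclear regions within that distance had 0.33. Whether the position or the genes carry these values cannot be told apart here.

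Delta protocadherins are non-clustered and mark groups of neurons, and PCDH7 and PCDH10 have also been studied in tumours. The tested regions at the ends of PCDH7, PCDH10, PCDH17 and PCDH9 were 2523 to 7638 bp wide. The start regions of PCDH8, PCDH11X and PCDH19 were narrower, 628 to 900 bp, with SEs of 0.37 to 0.57, and that of PCDH18 lay between, 1739 bp with an SE of 0.27. None of these 4 was tested. PCDH7 had a region of 6247 bp over its start (chromosome 4, 30716078 to 30722324), with an implied 340 normalized reads in vehicle and 310 in octanoate in the authors' deposited table (log2 fold change -0.13, SE 0.12, adjusted p 0.640). PCDH10 had one of 7638 bp over the lower-coordinate end of its span (chromosome 4, 133146028 to 133153665), with 333 and 357 reads and a log2 fold change of 0.10 (SE 0.12, adjusted p 0.722). PCDH17 had 169 in both groups at its start (log2 fold change 0.0037, SE 0.16, adjusted p 0.994). At the start of PCDH9 the implied levels were 229 and 241 (log2 fold change 0.07, SE 0.14, adjusted p 0.840). PCDH9 had the highest signal per kb of the member starts, 93.3, at percentile 86.7 of starts with a region. The interval of PCDH10 ran from -0.13 to 0.34.

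Of the other tested protocadherin regions outside the clusters, PCDH1 had a pair with log2 fold changes of 0.17 (SE 0.20) and -0.19 (SE 0.20) in the authors' deposited table. PCDH8 had 0.25 (SE 0.26), PCDH20 0.26 (SE 0.26), PCDH15 0.15 (SE 0.21) and a second PCDH10 region 0.02 (SE 0.23). The adjusted p-values of these 6 regions ran from 0.663 to 0.975 (DESeq2). PCDH15, an adhesion protein of inner ear hair cells, had 34 regions with a median of 0.15, 21 of them above 0. PCDH11X had 16 regions, none tested, with a median of -0.19, and 6 of them were above 0. Non-member regions within 1 Mb of PCDH11X had a median of 0.25, and the rest of chromosome X had 0.21. One weak PCDH7 region (chromosome 4, 30948633 to 30948996) had the largest value of any member, 3.02, with an SE of 1.11 and a mean of 5.50 normalized reads.

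By subfamily, the median log2 fold change was 0.33 over 53 type I regions, 0.14 over 134 type II regions and 0.36 over 76 atypical regions. It was 0.04 over 73 delta-1 regions, 0.02 over 23 delta-2 regions and 0.11 over the 38 regions of PCDH12, PCDH15 and PCDH20. The order of the highest turned in regions with a mean at or above the nuclear median, where type I had 0.23 and atypical 0.19. Single genes weigh heavily in these pooled medians. CDH4 gave 26 of the 53 type I regions, CDH13 gave 53 of the 76 atypical ones and PCDH15 gave 34 of the 38. Within type I the gene medians ran from 0.04 in CDH1 to 0.64 in CDH15. All 436 member regions had a median of 0.16 with the middle 50% from -0.11 to 0.46, and 66.7% were above 0. All nuclear regions had a median of 0.23, the middle 50% from -0.04 to 0.52, and 72.1% above 0. Member regions had a median mean of 11.9 normalized reads and a median width of 440 bp, against 12.2 and 437 bp over all nuclear regions. Fewer of them reached the tested mean, 4.82% against 8.88%. At an unadjusted p under 0.05, 8 of the 436 were higher (1.83%) and 0 lower, against 3.58% and 0.179% of nuclear regions. The 8 belonged to CDH13 (3), CDH23 (2), CDH26, PCDH7 and the gamma cluster, and 7 of the 8 were not tested by the authors.

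Gene medians were set beside those of their surroundings. Of the 34 genes outside the clusters with a region, 11 had a median above and 23 a median below the other regions of their chromosome. Against the non-member regions within 1 Mb, 17 genes were above and 17 below. The median of those surroundings was 0.17, and the median of the genes was 0.15. CDH2 lay at 0.05 in surroundings of -0.21 (-0.04 over its 6 regions with a mean at or above the nuclear median), and CDH4 at 0.48 in surroundings of 0.36. Neighbouring regions are not replicates, and no test of these differences was possible without values per library.

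**Figure D3:**
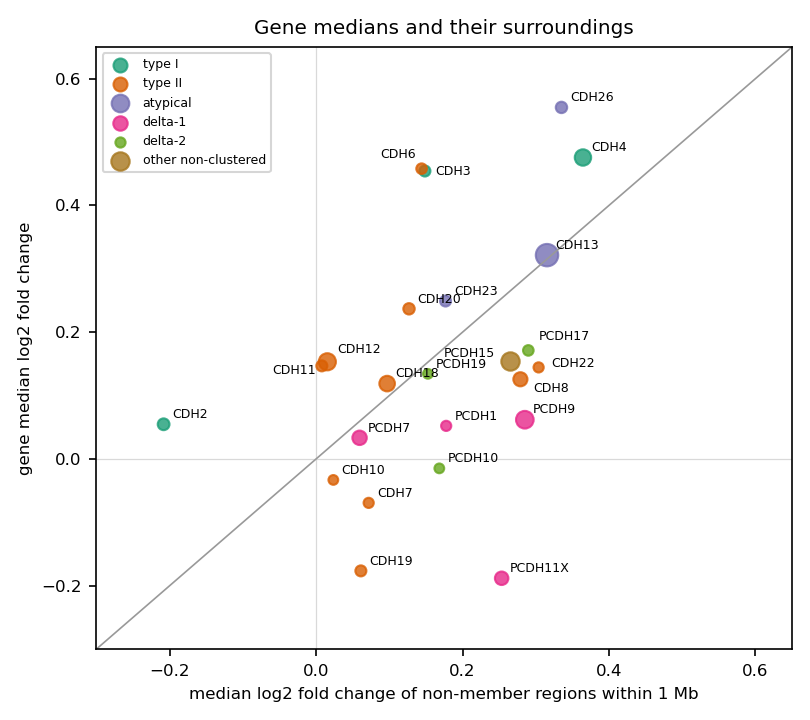
Median log2 fold change of each gene outside the clusters with at least 5 regions (y axis) against the median of non-member regions within 1 Mb (x axis), with point size following the number of regions and the line marking equal values. Of these 24 genes 11 lie above the line and 13 below it, with CDH6 and CDH3 far above and PCDH11X far below.

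At starts of genes outside the clusters the median fold change was below 0. The RefSeq promoter table listed a start for 69 of the 88 members, 22 of them outside the clusters, and a start was counted as open when a region overlapped the 250 bases before to 50 bases after the outermost one. Of the 22, 15 had such a region (68.2%, against 68.4% of 15812 protein-coding genes). CDH4 and PCDH1 counted as without one, because their listed starts lie 247160 and 8783 bp inside the gene span, while a region lay over the span's own end in both (means of 42.7 and 114 normalized reads). Of the 15 regions, 11 had a log2 fold change below 0 in the authors' deposited table, with a median of -0.11. Over all 10811 gene starts with a region the median was 0.14 and 23.2% were below 0. Each of the 15 intervals held 0, and 5 of the 15 regions were tested. By the wider measure of regions within 1 kb of either gene end, 32 regions outside the clusters had a median of -0.02, and the other 365 had 0.16. CDH11 and CDH13, which have no listed start, entered the second measure only, and CDH1 entered neither.

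**Figure D4:**
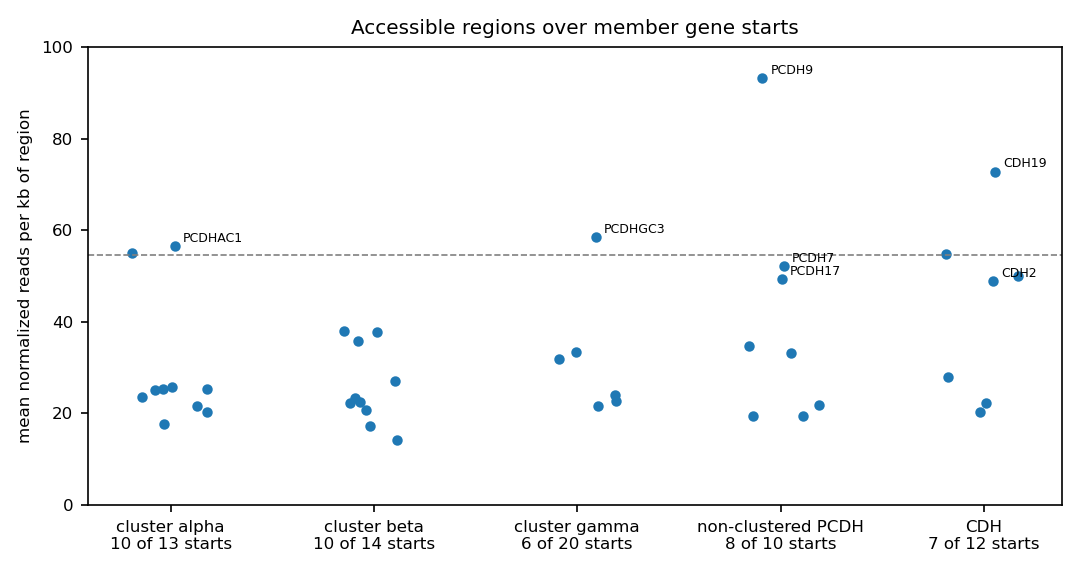
Mean normalized reads per kb (y axis) of the region over each member start that had one, by group (x axis, number of starts with a region of those listed), with tested regions named and the dashed line marking the median of all protein-coding starts with a region, 54.7 per kb. PCDH9, CDH19, PCDHGC3 and PCDHAC1 are the tested starts above the line.

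The clustered protocadherins were counted separately. Of their regions 31 belonged to more than 1 member. Alpha genes share regions because they run to the same last exons, as do gamma genes, while neighbouring beta genes share regions through the 5 kb extension. The variable exons are also close copies of each other, and reads that fit several copies may have been dropped or misplaced by the authors' alignment, which the table does not show. The alpha cluster had 15 regions, the beta cluster 13 and the gamma cluster 11. Their median log2 fold changes were 0.23, 0.27 and 0.37, and 0.27 over all 39. Of the 39, 3 were tested and 0 passed the threshold (background 1.02%).

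The promoters shown are, for each cluster, the start with the highest signal per kb followed by the first start along the chromosome without a region. All are the 250 bases before the RefSeq start on the plus strand of chromosome 5 (GRCh38.p14), with CGCT on either strand in capitals. They lie at chr5:140926049-140926298, chr5:140785890-140786139, chr5:141192103-141192352, chr5:141100223-141100472, chr5:141475716-141475965 and chr5:141338510-141338759 in the order given.
PCDHAC1: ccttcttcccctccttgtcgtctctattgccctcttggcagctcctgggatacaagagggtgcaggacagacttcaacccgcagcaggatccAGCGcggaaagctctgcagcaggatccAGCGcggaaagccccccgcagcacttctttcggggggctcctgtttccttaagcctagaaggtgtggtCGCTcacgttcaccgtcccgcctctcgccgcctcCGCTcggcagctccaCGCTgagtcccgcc
PCDHA1: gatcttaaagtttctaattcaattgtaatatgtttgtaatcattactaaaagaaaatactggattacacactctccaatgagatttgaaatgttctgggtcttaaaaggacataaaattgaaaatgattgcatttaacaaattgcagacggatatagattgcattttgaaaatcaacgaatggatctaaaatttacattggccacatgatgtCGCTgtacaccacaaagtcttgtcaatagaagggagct
PCDHB10: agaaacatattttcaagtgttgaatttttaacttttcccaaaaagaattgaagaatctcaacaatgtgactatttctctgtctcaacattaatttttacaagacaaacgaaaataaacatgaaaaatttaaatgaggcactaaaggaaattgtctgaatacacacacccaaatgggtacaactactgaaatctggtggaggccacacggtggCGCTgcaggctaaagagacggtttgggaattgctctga
PCDHB3: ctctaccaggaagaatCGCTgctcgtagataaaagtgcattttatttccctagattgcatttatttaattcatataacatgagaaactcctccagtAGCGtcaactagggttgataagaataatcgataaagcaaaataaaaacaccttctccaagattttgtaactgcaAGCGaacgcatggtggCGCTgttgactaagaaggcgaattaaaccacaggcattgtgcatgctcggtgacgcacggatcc
PCDHGC3: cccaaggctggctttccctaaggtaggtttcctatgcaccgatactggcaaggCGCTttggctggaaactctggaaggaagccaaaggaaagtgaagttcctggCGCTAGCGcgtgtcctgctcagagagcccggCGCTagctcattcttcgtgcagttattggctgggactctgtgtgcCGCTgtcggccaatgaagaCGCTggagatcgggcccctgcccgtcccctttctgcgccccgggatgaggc
PCDHGA2: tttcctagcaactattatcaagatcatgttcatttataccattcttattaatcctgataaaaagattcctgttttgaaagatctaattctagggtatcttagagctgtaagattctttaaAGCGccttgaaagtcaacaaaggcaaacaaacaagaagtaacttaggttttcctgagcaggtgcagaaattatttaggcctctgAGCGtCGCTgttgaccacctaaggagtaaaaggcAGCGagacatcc
The PCDHAC1 and PCDHGC3 stretches held 18 and 15 CpG dinucleotides, against 3 for PCDHA1 and 4 for PCDHGA2. The beta pair ran the other way, with 4 in PCDHB10 and 11 in PCDHB3, which had no region at its start. Over all listed clustered starts the median in 300 bases was 7 both with and without a region. CGCT was found in the starts with a region and in those without one.

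Within the clusters, the open starts differed by group. A region lay over 10 of 13 listed alpha starts, 10 of 14 beta starts and 6 of 20 gamma starts. Most were weak: the 26 regions had a median of 24.6 normalized reads per kb, against 54.7 over all protein-coding starts with a region and 38.7 over those with 5 to 10 CpG dinucleotides, of which 32.6% had a region. The start of PCDHAC1 (chromosome 5, 140925988 to 140927356) had 56.5 per kb, that of PCDHAC2 54.9 and that of PCDHGC3 (141475613 to 141477053) 58.6. These 3 are C-type genes, which stand at the end of the variable exons and are known to be used more evenly across cells than the others. The next highest clustered start, that of PCDHB10, had 38.03 per kb, and the listed start of PCDHGC4, also a C-type gene, had no region.

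Of the 26 start regions in the clusters 2 were tested, 0 passed the threshold (background 1.02%), and the intervals of all 26 held 0. PCDHGC3 had an implied 75.4 normalized reads in vehicle and 93.3 in octanoate in the authors' deposited table, a log2 fold change of 0.31 (SE 0.23, adjusted p 0.540). PCDHAC1 had 71.3 and 83.5, a log2 fold change of 0.23 (SE 0.25, adjusted p 0.702). The third tested region covers the end of the gamma span and overlaps DIAPH1 (141512524 to 141514811), with 0.13 (SE 0.19, adjusted p 0.791). A region before it inside the constant part (141508627 to 141509599) had 0.65 (SE 0.30, unadjusted p 0.0312) from a mean of 49.8, and it was not tested. The median of the 26 was 0.29, against 0.14 over all gene starts, while 26.9% of them were below 0, against 23.2%. The 2 sets differ in signal, with a median mean of 14.7 normalized reads for the 26 and 69.9 over all gene starts. Non-member regions of chromosome 5 had a median log2 fold change of 0.24. Those within 1 Mb of a clustered gene had medians of 0.22 to 0.27, depending on the gene. Regions of 1 cluster are not independent measurements of it.

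**Figure D5:**
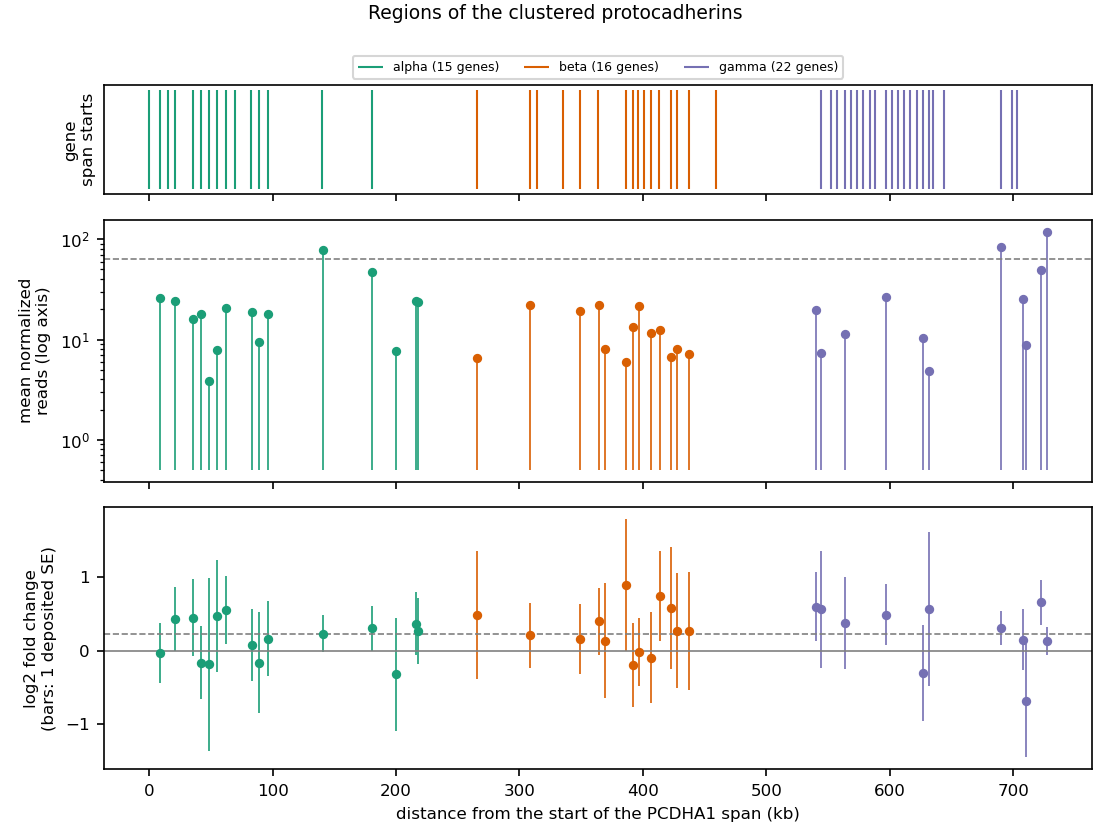
The clustered protocadherins by distance from the start of the PCDHA1 span (x axis, kb), with gene span starts on top, the mean normalized reads of each of the 39 regions on a log axis in the middle (dashed line at 63.8, the lowest tested mean) and log2 fold changes with 1 deposited SE below (dashed line at 0.23). The highest signals stand at the C-type genes and at the end of the gamma cluster.

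Promoter letters were compared with those of other genes. CGCT was found in 97.9% of the 47 listed clustered starts (300 bases, either strand), in 95.5% of the 22 members outside the clusters and in 81.0% of all protein-coding starts. Among the 1935 protein-coding starts with 5 to 10 CpG dinucleotides, the middle 50% of the clustered starts, it was found in 67.8%. The clustered starts had a median of 7 CpG dinucleotides in 300 bases, members outside the clusters 11.5 and all protein-coding starts 22. AGGGGGC, letters within the consensus of the insulator protein CTCF, was found in 0 of the 47 on either strand, in 13.6% of the 22 members outside the clusters and in 17.7% of all starts. Among the starts with 5 to 10 CpG dinucleotides it was found in 11.01%. Those starts do not match the clustered ones in base composition. The median share of G and C was 39.7% in the clustered starts, 54% in those with 5 to 10 CpG dinucleotides and 62.7% in all. Matches of CGCT and AGGGGGC can overlap by 1 letter at their edges. A match is no sign of binding, and its absence in this window says nothing of sites elsewhere.

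The partners of cadherins were read in the same way from lists chosen by function. Of the 11 genes for catenins and other cytoplasmic partners, all had regions, 158 in all with a median log2 fold change of 0.19. They had 7 tested regions, 0 past the threshold (background 1.02%) and 1 higher at an unadjusted p under 0.05, a share near the background of 14.8%. That one lay over CTNND1, the gene of p120-catenin, which holds cadherins at the membrane (chromosome 11, 57777603 to 57780333, log2 fold change 0.26, SE 0.13, adjusted p 0.327 in the authors' deposited table). CTNNB1, the beta-catenin gene, had a tested region with 0.02 (SE 0.19, adjusted p 0.965). Of 24 other genes of the superfamily (desmosomal cadherins, FAT, DCHS, CELSR, CDHR and calsyntenin genes) 23 had a region, 193 in all with a median of 0.18. Of these 14 were tested, with 0 past the threshold and 0 at an unadjusted p under 0.05. The 9 genes of CTCF, cohesin and related factors, which take part in choosing clustered protocadherin promoters, had 9 tested regions, 1 each, from -0.07 to 0.24, with 0 past the threshold.

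Regions at marker genes of several cell types were counted. All 7 melanocyte lineage genes had regions, 50 in all with 25 of them in MITF, and 1 was tested, in MITF with a mean of 168 normalized reads. Epithelial markers had 8 regions and 0 tested, with none at KRT5. Endothelial markers had 25 regions with 1 tested, in VWF. The blood cell genes PTPRC and CD3E had 11 regions with 3 tested. The tested share was 2% for the melanocyte lineage, 4% for endothelial and 27.3% for blood cell regions, against 8.88% of all nuclear regions. Regions were thus listed at genes of other cell types too, and such counts cannot check the label of the cells.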

How the data were processed

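ATAC-seq was run on 4 libraries of A375 cells, grouped by their labels. The members and lists were chosen with earlier results of these data known. Per the submitters' processing notes, the tools were Trim Galore, cutadapt, FastQC, Bowtie2, Picard, MACS2, featureCounts, DESeq2 and bedtools 2.29.1, on build hg38; roles, parameters, the merging of regions, any shift for the Tn5 cut and the scaling are not given in the sources used here. Per the file headers, the deposited signal is a mean normalized read count over the 4 libraries. The authors' log2 fold change (octanoate over vehicle), its standard error, the Wald score and the p-value with its adjusted p are used as deposited by the authors, and none was refitted. The deposited adjusted p equals a Benjamini-Hochberg adjustment of 11185 regions, those whose mean reaches 63.8. For the other 114801 it is listed as 1, and these were treated as not tested.

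Regions were matched to RefSeq GRCh38.p14 gene spans extended by 5 kb, and starts and sequences came from the RefSeq promoter table (69 of 88 members). Exons and introns were not analysed here, and 1 gene of the marker lists is not reported here. Genes named were 8 fixed ones, members with a tested region, the 5 with most regions, and the 5 highest and 5 lowest medians outside chromosome 5 among genes with at least 10 regions. CDH6, CDH15, CDH23, PCDH12, PCDH18, PCDH19, PCDHAC2, PCDHB3 and PCDHB10 were named after their values were seen. Implied levels solve the mean and the fold change for 2 equal groups. The overlaps, the intervals of medians and the centred adjustment were tested on simulated data. The depth of each library is unknown, so precision is given by the deposited standard errors. Python 3.11.15, pandas 2.3.3 and scipy 1.17.1 were used.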

Additional observations from a re-analysis of the deposited data

How the results depend on the processing

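The count of member regions past the threshold was 0 of 21 tested regions as deposited, and 0 at an adjusted p under 0.1 or 0.01, with Benjamini-Hochberg over all regions, centred on the tested median, with no extension of the gene spans (18 tested regions) and with 10 kb (24). The median of 0.16 over all member regions was 0.10 in tested regions only, 0.23 when each gene counted once (50 of the 84 genes with a region are clustered and share regions), and -0.071 centred on the median of all nuclear regions, which by construction subtracts 0.23. For the clustered regions this centring gave 0.036 in place of 0.27. At starts outside the clusters it gave -0.34 in place of -0.11, an alternative chosen after seeing the data, as were within 1 kb of either gene end (-0.019), tested starts only (-0.13) and the median without CDH13 (0.15). Leaving out each gene outside the clusters in turn moved the median over all member regions between 0.147 and 0.161. No paired analysis was possible because no deposited column belongs to one library, and leaving out a replicate or fitting counts could not be done for the same reason. In regions with a mean at or above the nuclear median, gene medians moved from 0.32 to 0.16 for CDH13, 0.15 to 0.08 for CDH12, 0.15 to 0.10 for PCDH15, 0.13 to 0.04 for CDH8 and 0.05 to -0.04 for CDH2, which was -0.27 in its 1 tested region. Subfamily medians moved from 0.36 to 0.19 (atypical), 0.14 to 0.07 (type II), 0.02 to 0.0037 (delta-2) and 0.11 to 0.05 (PCDH12, PCDH15 and PCDH20). In tested regions only, the type I median was 0.11 (2 regions), type II -0.13 (2 regions, from 0.14) and delta-1 -0.03 (4 regions, from 0.04). There the atypical median was 0.26 (4 regions, from 0.36) and delta-2 0.06 (4 regions, from 0.02). For PCDH12, PCDH15 and PCDH20 together it was 0.21 (2 regions, from 0.11). The extension of the spans moved some medians too. With no extension, CDH8 had 0.06 (17 regions) in place of 0.13, and PCDH12, PCDH15 and PCDH20 together 0.16 in place of 0.11. With 10 kb, CDH2 had 0.02 (12 regions) in place of 0.05, type I 0.24 in place of 0.33 and delta-2 0.06 in place of 0.02. Low signal limits what can be seen: 4.82% of member regions were tested, against 8.88% of all nuclear regions.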
